A study of Homo sapiens with 12 samples.

Results

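The genes described here encode the proteins of the mitochondrial ribosome. They were taken as every gene whose symbol begins with MRPL or MRPS, then has a number and at most one letter from A to C, which gave 78 of the 32321 genes listed in any of the 4 deposited comparison tables. Of the 78, 77 had an adjusted p-value in the hairpin 1 table, 77 for hairpin 2, 74 for 6 h and 76 for 24 h. MRPL53 was listed in the hairpin 1 table only, where it had 2 reads in a single library, and it was tested nowhere. MRPS36 carries the family symbol although its protein is now known as a part of the 2-oxoglutarate dehydrogenase complex, and it was not called in any comparison.

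The study asked how loss of IGF2BP3, an RNA-binding protein of the insulin-like growth factor 2 mRNA-binding family, changes gene expression in acute myeloid leukemia cells. MOLM13 cells carried lentivirus with the control hairpin shNS, with shBP3-1 (hairpin 1) or with shBP3-2 (hairpin 2). U937 cells made IGF2BP3 fused to mAID, a mini-auxin-inducible degron, and were untreated (NT) or kept in the auxin analogue 5-Ph-IAA, which sends the fused protein to degradation, for 6 h or 24 h. Each of the 6 groups had 2 libraries, so the controls of U937 also carried the tag, and the labels do not say whether the tagged line is 1 clone or whether libraries came from separate cultures. The libraries of a group are called deeper and shallower by their depth, because nothing ties a library to its replicate number.

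The mitochondrial ribosome translates the few messages of mitochondrial DNA, all of which encode subunits of the respiratory chain and the ATP synthase. Its RNAs come from mitochondrial DNA, but its proteins are encoded in the nucleus, made in the cytosol and imported, and they form a large subunit that joins amino acids and a small subunit that reads the message. Part of them descend from bacterial ribosomal proteins and part are found in mitochondria alone. Leukemia cells have been reported to be sensitive to drugs that block this ribosome, such as tigecycline.

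Reads in listed genes ranged from 21853081 to 23429971 in MOLM13 and from 10214912 to 15176967 in U937, and the intervals below cover the authors' test and not the source of the libraries. IGF2BP3 was at 1920 and 1923 normalised reads with shNS and at 723 and 814 with hairpin 1, a log2 fold change of -1.32 in the authors' deposited table. With hairpin 2 it was at 912 and 924 against 1874 and 1885, a log2 fold change of -1.03 in the authors' deposited table. The degron acts on the protein, so the IGF2BP3 message does not check the U937 treatment. Of 10 myeloid markers, 9 in MOLM13 and 8 in U937 reached 10 normalised reads in the controls, and no T cell or erythroid marker of the 5 looked for did. Of 5 B cell markers, 2 in shNS and 3 in NT reached it, led by PAX5 with means of 1070.5 and 198 normalised reads, and of 5 epithelial markers 2 did in shNS, led by KRT18 with 874, and 0 in NT. The summed myeloid markers stood at 1837 RPM (reads scaled to library depth) in shNS, 7285 with hairpin 1 and 11809 with hairpin 2, and in U937 they were at 801 in NT, 1015 at 6 h and 999 at 24 h. In MOLM13 most of that sum was LYZ, the lysozyme gene, with a mean of 24004 normalised reads in shNS and 140520.0 with hairpin 1, and 23486 and 231844 for hairpin 2. MPO went the other way, from 416 to 148 with hairpin 1 and from 407 to 72.7 with hairpin 2, and CD33 stood at 1209 and 1281, and at 1182.5 and 1146. In U937 ITGAM was at 76.3 in NT and 39.7 at 6 h, and at 80.5 and 24.0 for 24 h. In MOLM13 it rose, from 1533 to 2742 with hairpin 1 and from 1499 to 3293 with hairpin 2. Among the other myeloid markers that reached 10 normalised reads in NT, only LYZ was lower at 6 h, at 288 and 195. Only CD4 was lower at 24 h, at 2528 and 1639. SPI1 rose from 1043 to 1456 at 6 h and from 1099 to 1908 at 24 h. The part of these markers in the results below was not tested. In bulk libraries fewer cells of a kind and less RNA per cell cannot be told apart.

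The whole family took a similar share of the reads in both control groups. The members together held 0.349% and 0.360% of the reads in the shNS libraries, 0.344% and 0.333% with hairpin 1, and 0.236% and 0.234% with hairpin 2. In U937 the share was 0.395% and 0.390% in NT, 0.433% and 0.435% at 6 h, and 0.503% and 0.506% at 24 h. All 4 treated groups lay outside the range of their controls, lower in MOLM13 and higher in U937. The mean share with hairpin 2 was 0.663 times that of shNS and that at 24 h was 1.28 times that of NT, whereas hairpin 1 gave 0.954 and 6 h gave 1.11. The exact two-sided permutation test of 2 libraries against 2 gave p = 0.333 for each, which is the smallest it can give. MRPS10 alone held 13.2% and 12.5% of the member reads in NT; without it the share still went from 0.343% and 0.342% in NT to 0.425% and 0.428% at 24 h.

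**Figure D1:**
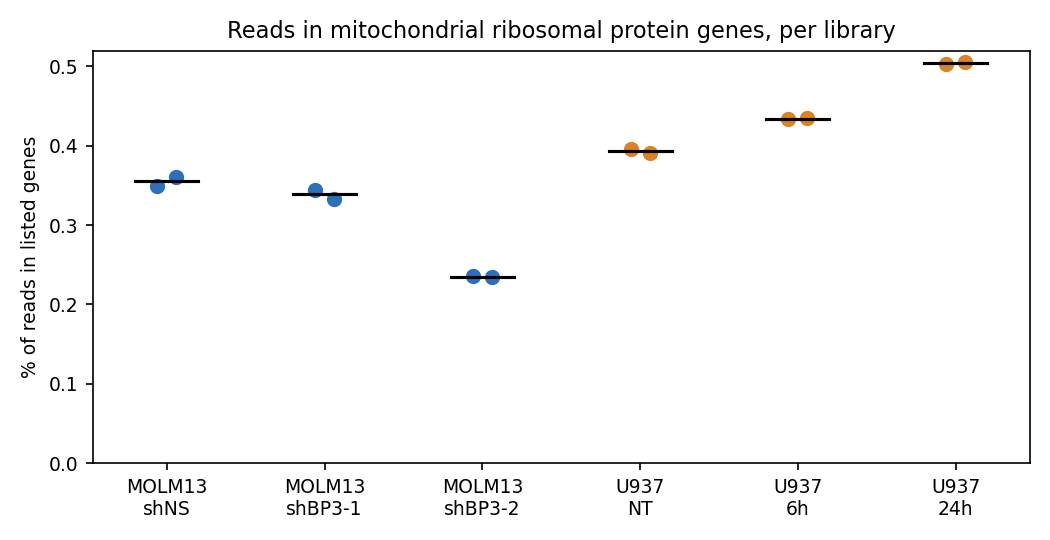
Percentage of the reads in listed genes that fell in mitochondrial ribosomal protein genes; each point is 1 library, the line is the mean of the group's 2 libraries, and blue is MOLM13 and orange U937. The shBP3-2 libraries, at 0.236% and 0.234%, are the lowest, and the 24 h libraries, at 0.503% and 0.506%, the highest.

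Levels of the members spanned a wide range. Scaled to gene length, the median member had an RPKM value (reads per kilobase of exon, scaled to depth) of 13.2 in shNS and 13.4 in NT. In shNS the highest were MRPL18 with 64.4, MRPS21 with 63.1, MRPL15 with 55.3 and MRPL3 with 54.9 on this scale. In NT MRPS10, a small-subunit homologue of the bacterial S10 protein, stood apart with 247 and 230, followed by MRPL37 with 84.4 and 89.1. MRPS10 had 37.2 and 43.8 in shNS, so its NT mean was 5.89 times its shNS mean. The reverse held for MRPS21, whose shNS mean of 63.1 was 5.98 times its NT mean of 10.6 on the same scale. The lines differ also in the RNA named on their labels, total RNA for MOLM13 and mRNA for U937, and that cannot be told apart from the line.

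Low counts went with overlapping annotation. In GENCODE release 29, 7 members share at least 20% of their exonic bases with another gene on the same strand: MRPL12, MRPL33, MRPL38, MRPL53, MRPS17, MRPS24 and MRPS28. Their median base mean in the hairpin 1 table was 66.1 and 6 of the 7 lay under 150, against a median of 818 and 2 of 71 under 150 for the other members. MRPS24 shares exons with the read-through gene URGCP-MRPS24 and had 11.1 normalised reads in each shNS library. MRPL12, which binds the mitochondrial RNA polymerase besides its place in the ribosomal stalk, had 107 and 63.8. How reads in shared exons were assigned is not given in the sources used here, so the levels of these members are uncertain.

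With hairpin 2 nearly the whole family was lower. Of the 77 tested members 64 were lower at an adjusted p under 0.05 and 3 were higher in the authors' deposited table, where 22.1% of all tested genes were lower and 19.4% higher. Among genes with a base mean in the members' range, 35.1% were lower and 27.2% higher. The median log2 fold change of the members in the authors' deposited table was -0.65, or 63.6% of control, against 0.02 for all tested genes and -0.07 for genes in the same range. Both hairpin 2 libraries lay below both shNS libraries for 69 members, above them for 4, and overlapped them for 4. How often all genes separate in this way was not counted, so these numbers have no background. Both subunits took part. Of the large-subunit proteins 42 of 50 were lower and 3 higher, with a median log2 of -0.66 in the authors' deposited table, and of the small-subunit proteins 22 of 26 were lower and none higher, with a median of -0.56. Among homologues of bacterial proteins 26 of 30 were lower in the large subunit and 13 of 16 in the small, and among proteins found in mitochondria alone 16 of 20 and 9 of 10.

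The 3 members with the lowest fold changes belong to the stalks of the large subunit, the arms that bind translation factors or guide used transfer RNA out. MRPL10, the protein at the base of the factor-binding stalk (chromosome 17, 47823272 to 47831534, minus strand, hg38), had 736 and 826 normalised reads in shNS and 269 and 229 with hairpin 2. That was 31.9% of control, a log2 fold change of -1.65 (95% interval -1.95 to -1.35) with an adjusted p of 2.12e-26 in the authors' deposited table. MRPL11, its neighbour at the stalk base, went from 915 and 865 to 335 and 323 normalised reads, or 37.0% of control. Its log2 fold change in the authors' deposited table was -1.43 (adjusted p = 6.05e-26).

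MRPL1, the protein of the opposite stalk (chromosome 4, 77862520 to 77952790, plus strand), went from 746 and 741 normalised reads to 267 and 305. The authors' deposited table gives a log2 fold change of -1.38 (adjusted p = 1.80e-20), or 38.5% of control. MRPL36, a small zinc-binding protein of the large subunit (chromosome 5, 1798386 to 1801366, minus strand), went from 683 and 543 to 264 and 276. Its libraries did not overlap, and its log2 fold change was -1.18 (adjusted p = 3.82e-12) in the authors' deposited table. MRPS27, a pentatricopeptide-repeat protein of the small subunit, was the most abundant of the 5 lowest, with 3526 and 3919 normalised reads in shNS and 1651 and 1656 with hairpin 2 (log2 -1.17, adjusted p = 4.19e-42 in the authors' deposited table). MRPL37 and MRPL3, large-subunit proteins, stood at 44.7% and 49.5% of control. In all, 11 called members were at or below 50% of control.

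The exceptions were few and were all in the large subunit. MRPL55, a homologue of the bacterial L31 protein (chromosome 1, 228106679 to 228109312, minus strand), had 304 and 364 normalised reads in shNS and 539 and 548 with hairpin 2, which did not overlap. Its log2 fold change in the authors' deposited table was 0.70 (95% interval 0.40 to 1.01, adjusted p = 2.51e-05). MRPL33 and MRPL34, small proteins with bacterial homologues, had log2 fold changes of 0.45 and 0.43 with adjusted p of 0.000825 and 0.00156 in the authors' deposited table. GUK1, the gene next to MRPL55, was also higher with hairpin 2, at log2 0.60 (adjusted p = 6.96e-08) in the authors' deposited table, although the annotation gives MRPL55 no exon shared with another gene. With hairpin 1 GUK1 was not called, at log2 0.25 (adjusted p = 0.149) in the authors' deposited table. MRPL33 shares 21.1% of its exonic bases with BABAM2 on the same strand.

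**Figure D2:**
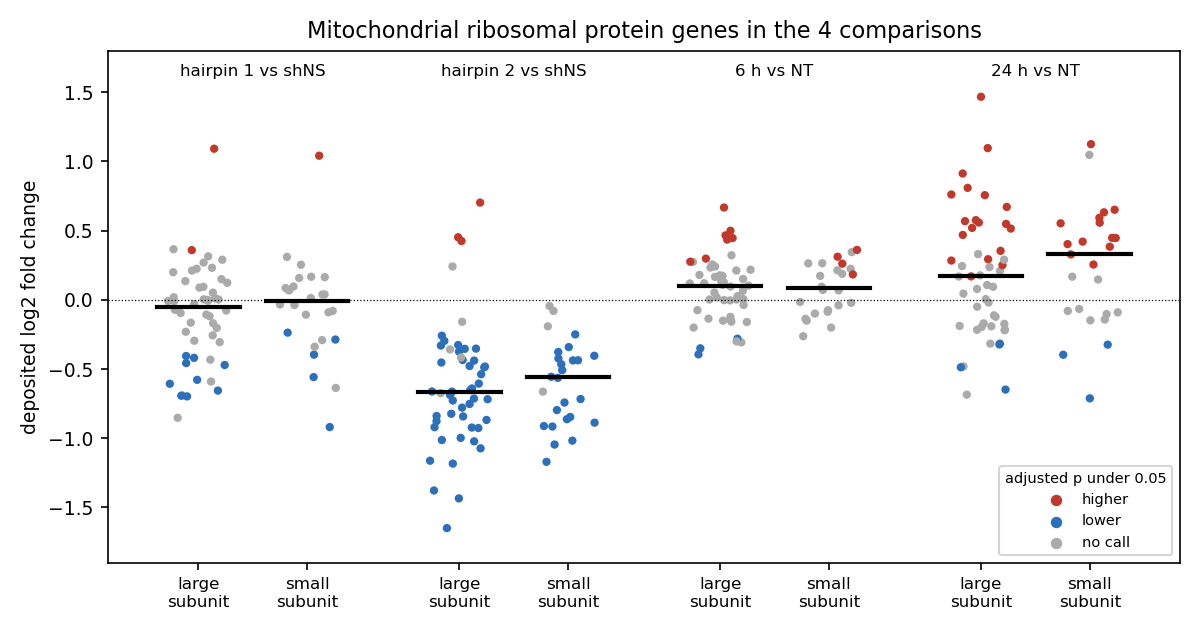
Deposited log2 fold change of each tested member except MRPS36 in each comparison, split into large-subunit and small-subunit proteins. Each point is 1 gene, the black line is the median, and red (higher) and blue (lower) mark adjusted p under 0.05. Hairpin 2 lies well below 0 in both subunits (medians -0.66 and -0.56), and the 24 h medians lie above it (0.17 and 0.33).

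Because most members fell together with hairpin 2, their promoters were searched for the letters of motifs common near housekeeping genes. RefSeq promoters (GRCh38.p14, 250 bases before to 50 after the start) were matched by symbol for 69 of the 78 members and searched on both strands. The ETS-family core CCGGAAG was found in 30 of 69 members (43.5%), against 12.2% of all 27305 genes with a promoter in that table and 25.2% of genes with a base mean in the members' range. It was found in 27 of the 57 members lower with hairpin 2 that had a promoter and in 3 of the other 12. Split by the 24 h call instead, it was found in 9 of 29 members that were higher (31%) and in 21 of 40 that were not (52.5%). The NRF1 letters (GCGCA, any base, GCGC) were found in 13% of members, 6.98% of all genes and 14.5% of genes in the same range. The E-box CACGTG was found in 13% of members, 8.77% of all genes and 12.5% of genes in the range. CCAAT was found in 33.3%, 39.7% and 44.1%, the Sp-family core GGGCGG in 60.9%, 48.3% and 76.9%, and TATAAA in 4.35%, 14% and 7.93%, in the same order. Split by the hairpin 2 call, CCAAT was found in 36.8% of the 57 lower members and 16.7% of the other 12. The NRF1 letters and the E-box were each found in 14% and 8.33%, the Sp-family core in 57.9% and 75%, and TATAAA in 5.26% and 0%. Whether any motif differs between the 57 and the 12 was not tested. A match here is a run of letters and not a bound site.

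The stretches of 250 bases before the RefSeq start are given for 4 members on which the results turn: MRPL36 and MRPL1 among the lowest with hairpin 2, MRPL55, which rose, and MRPS18A, the highest at 24 h. They are written 5′ to 3′ on the strand of the gene, at chr5:1799838-1800087 (minus), chr4:77862580-77862829 (plus), chr1:228109300-228109549 (minus) and chr6:43687792-43688041 (minus), with capitals for the letters of any of the 6 motifs on either strand. MRPL36 holds an NRF1 match 110 bases and an E-box 56 bases before its start, MRPS18A an ETS-family match 31 bases before it, and MRPL55 5 Sp-family matches.
MRPL36: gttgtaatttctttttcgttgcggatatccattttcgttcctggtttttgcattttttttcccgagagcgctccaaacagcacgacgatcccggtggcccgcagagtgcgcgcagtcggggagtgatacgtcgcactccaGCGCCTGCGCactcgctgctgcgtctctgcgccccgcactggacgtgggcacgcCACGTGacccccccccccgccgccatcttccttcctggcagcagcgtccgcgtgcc
MRPL1: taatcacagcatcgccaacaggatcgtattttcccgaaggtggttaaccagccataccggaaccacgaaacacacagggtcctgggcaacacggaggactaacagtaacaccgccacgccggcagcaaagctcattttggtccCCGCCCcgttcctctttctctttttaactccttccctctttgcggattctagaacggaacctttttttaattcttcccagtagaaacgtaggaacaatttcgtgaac
MRPL55: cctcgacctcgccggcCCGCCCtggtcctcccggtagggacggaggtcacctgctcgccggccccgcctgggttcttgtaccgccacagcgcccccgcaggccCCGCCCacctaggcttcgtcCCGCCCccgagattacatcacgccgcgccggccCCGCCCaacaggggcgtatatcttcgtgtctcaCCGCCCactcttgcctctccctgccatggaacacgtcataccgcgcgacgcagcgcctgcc
MRPS18A: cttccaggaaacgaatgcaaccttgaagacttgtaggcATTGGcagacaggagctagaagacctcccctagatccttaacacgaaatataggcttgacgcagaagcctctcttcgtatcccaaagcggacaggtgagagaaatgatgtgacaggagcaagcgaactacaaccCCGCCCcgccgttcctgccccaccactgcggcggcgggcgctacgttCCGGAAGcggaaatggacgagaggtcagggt

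Hairpin 1 changed far fewer members. Of 77 members 14 were lower and 3 higher in the authors' deposited table, where 16% of all tested genes were lower and 17.7% higher. In the members' range of base mean 20.3% of genes were lower and 21.7% higher, so the share of lower members, 18.2%, was near the background. The limma-voom fit on whole reads called more, 23 members lower and 8 higher, beside 3651 genes lower and 3922 higher of 16842. The median log2 fold change in the authors' deposited table was -0.03 against -0.01 for all tested genes. The hairpin 1 libraries lay below both shNS libraries for 28 members, above them for 14 and overlapped them for 35, again without a count over all genes. The large-subunit proteins had 9 lower and 2 higher of 50, and the small-subunit proteins 5 lower and 1 higher of 26.

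The lowest members are given with their hairpin 2 values, from a comparison that shares the shNS libraries. MRPS9, a small-subunit homologue of the bacterial S9 protein, had 544 and 594 normalised reads in shNS and 298 and 303 with hairpin 1. Its log2 fold change was -0.92 with hairpin 1 (adjusted p = 1.81e-07) and -0.80 with hairpin 2 (adjusted p = 6.53e-07) in the authors' deposited table. MRPL32, a large-subunit protein whose processing by a mitochondrial protease precedes assembly in mouse and yeast, went from 539 and 631 to 343 and 378. It stood at log2 -0.70 with hairpin 1 and -0.88 with hairpin 2 in the authors' deposited table. MRPL48, a large-subunit protein, was likewise lower with each, at log2 -0.69 and -0.92 in the authors' deposited table.

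The largest rises with hairpin 1 were those of MRPL55 and MRPS6. MRPL55 had 311 and 371 normalised reads in shNS and 811 and 643 with hairpin 1, or 213% of control (log2 1.09, adjusted p = 1.98e-09 in the authors' deposited table). MRPS6, a small-subunit homologue of the bacterial S6 protein (chromosome 21, 34073224 to 34143034, plus strand), had 446 and 467 in shNS and 912 and 968 with hairpin 1. Its log2 fold change was 1.04 with hairpin 1 (adjusted p = 6.18e-13) and -0.08 with hairpin 2 (adjusted p = 0.733) in the authors' deposited table. The sodium and myo-inositol cotransporter gene SLC5A3 lies within the MRPS6 locus on the same strand and shares exonic bases with it, 9.61% of those of MRPS6 counting all overlapping genes. SLC5A3 had log2 fold changes of 1.30 with hairpin 1 and -0.07 with hairpin 2 in the authors' deposited table, so the reads of these genes may not be separable. MRPL15 was higher with hairpin 1 and lower with hairpin 2, at log2 0.36 and -0.26 in the authors' deposited table, and in the limma-voom fits on whole reads the first call was lost without the deeper shNS library and the second without any of 3 libraries, at adjusted p of up to 0.0553 and 0.260.

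The hairpins differed from each other for most members. Subtracting the deposited log2 change of hairpin 1 from that of hairpin 2, the result was below 0 past the threshold for 42 of 77 members and above it for none, where 18.3% of all genes tested in both lay below and 9.1% above. The direct limma-voom contrast of the hairpin libraries put 56 of 77 below and none above. Of all 16842 genes in that fit 4938 lay below and 3686 above. The median difference was -0.48 for the members and -0.06 for all genes. MRPL1 differed most, by -1.58 (95% interval -1.97 to -1.19, adjusted p = 7.07e-14 by the normal test of the difference), with 804 and 943 normalised reads with hairpin 1 where shNS had 765 and 756. MRPL10, MRPL36 and MRPS12, the last a small-subunit protein of the decoding centre, differed by -1.35, -1.19 and -1.17, with adjusted p of 1.31e-09, 1.59e-06 and 9.35e-09 by the same test. The IGF2BP3 message stood at log2 -1.32 with hairpin 1 and at -1.03 with hairpin 2, both in the authors' deposited table. These libraries do not measure the protein, and the part of knockdown depth in the difference between hairpins was not tested.

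**Figure D3:**
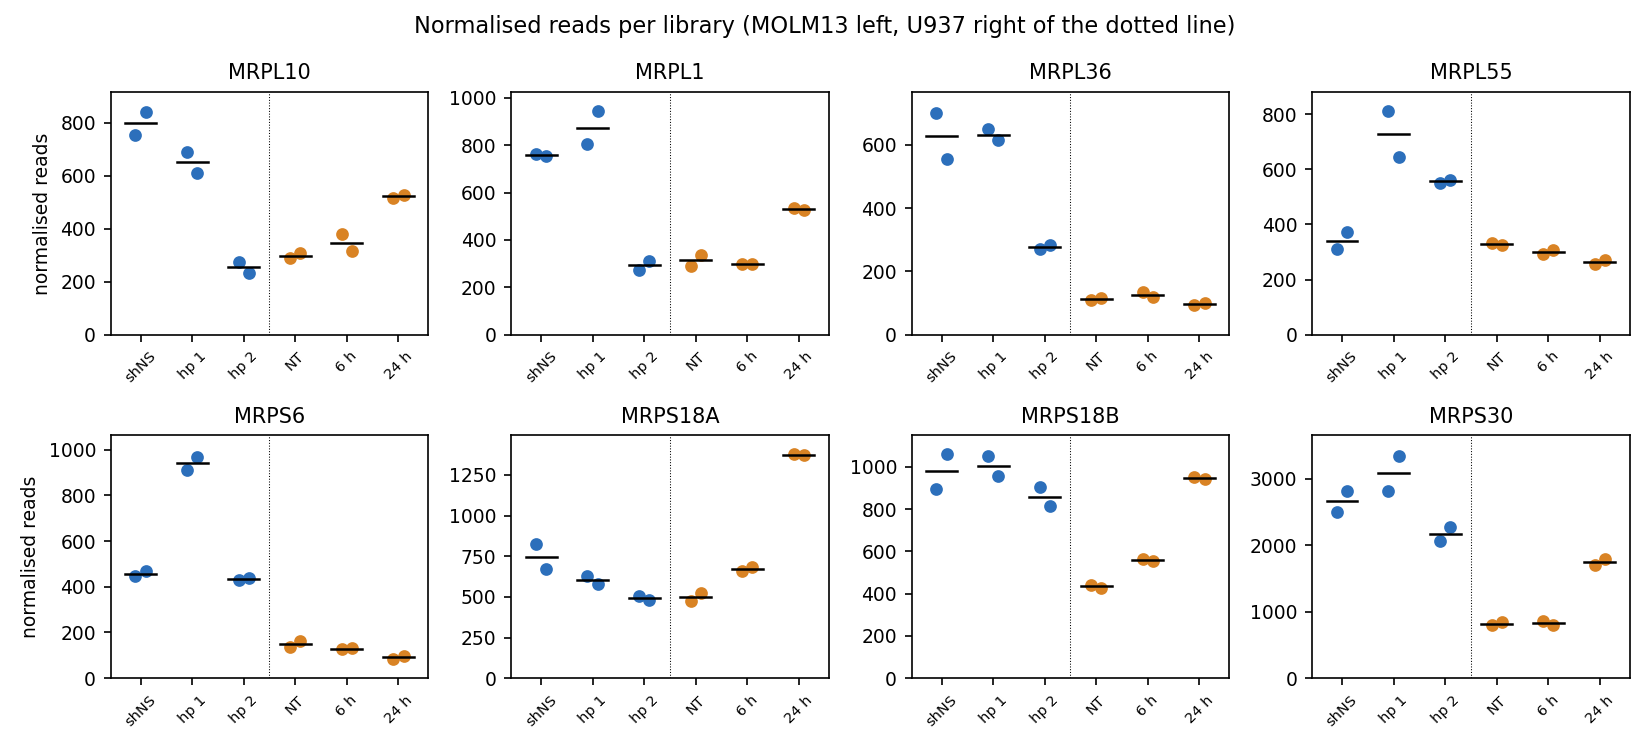
Normalised reads of 8 members in every library, MOLM13 (blue) left and U937 (orange) right of the dotted line; each point is 1 library, each line the mean of 2, hp is hairpin, and the second comparison of each line is put on the scale of the first through the shared control. MRPL10, MRPL1 and MRPL36 drop with hairpin 2, MRPS6 rises with hairpin 1 alone, and MRPS18A, MRPS18B and MRPS30 rise at 24 h.

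At 6 h in U937 few members were called, and the share that was higher, 14.9%, was near the background. Of 74 members 11 were higher and 3 lower at 6 h in the authors' deposited table, where 10.9% of all tested genes were higher, 12.3% lower and 23.2% either. In the members' range of base mean 12.1% were higher and 12.1% lower. The median log2 fold change in the authors' deposited table was 0.10 against 0.01 for all tested genes, and no called member changed by 2-fold. The 6 h libraries lay above both NT libraries for 33 members, below for 15 and overlapped for 26, without a count over all genes. MRPL54, a large-subunit protein found in mitochondria alone, had 115 and 97.9 normalised reads in NT and 161 and 177 at 6 h (log2 0.67, adjusted p = 0.0345 in the authors' deposited table). MRPL27, a homologue of the bacterial protein at the peptidyl transferase centre, and MRPL15 followed, at log2 0.50 and 0.47 with adjusted p of 0.0213 and 0.000206 in the authors' deposited table. MRPS10, at 6280 and 5856 in NT, reached 7424 and 7647 and had the lowest adjusted p of the family at 6 h, 3.94e-12, in the authors' deposited table. The 3 lower members were MRPL11, MRPL16 and MRPL37, at log2 -0.39, -0.35 and -0.28 in the authors' deposited table.

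At 24 h 32 of 76 tested members were higher and 7 lower in the authors' deposited table, where 18.9% of all tested genes were higher, 19.9% lower and 38.8% either. In the members' range of base mean 21.2% were higher and 21% lower. The median log2 fold change was 0.18 against 0.01 for all tested genes in the authors' deposited table. The 24 h libraries lay above both NT libraries for 42 members, below for 21 and overlapped for 13, without a count over all genes. The small-subunit proteins had 13 of 25 higher and 3 lower with a median log2 of 0.33, and the large-subunit proteins 19 of 50 higher and 4 lower with a median of 0.17, both from the authors' deposited table. Within the large subunit 8 of 30 homologues of bacterial proteins were higher and 3 lower (median -0.01), whereas 11 of 20 proteins found in mitochondria alone were higher and 1 lower (median 0.27, both medians from the authors' deposited table); the difference between these classes was not tested.

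The 3 largest rises among called members at 24 h exceeded 2-fold. MRPS18A, which despite its symbol sits in the large subunit (chromosome 6, 43671303 to 43687791, minus strand), had 500.1 and 550 normalised reads in NT and 1451 and 1446 at 24 h. It was at 277% of control, a log2 fold change of 1.47 (95% interval 1.30 to 1.63, adjusted p = 1.00e-67) in the authors' deposited table. The other strand holds RSPH9, a radial spoke gene of motile cilia, and 47.0% of the exonic bases of MRPS18A are shared with it. RSPH9 went from 377 and 346 to 981 and 942 normalised reads, at log2 1.41 in the authors' deposited table, and it was at 0.51 at 6 h where MRPS18A was at 0.44. In the hairpin 1 table RSPH9 had a base mean of 0.741. Whether reads were counted by strand is not given in the sources used here, so reads in the bases they share cannot be assigned to either gene. In MOLM13, where RSPH9 was nearly absent, MRPS18A had a base mean of 677 in the hairpin 1 table.

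MRPS18B, the small-subunit relative of MRPS18A (chromosome 6, 30617709 to 30626395, plus strand), shares no exonic base with another gene. It had 466 and 450.4 normalised reads in NT and 1006 and 994 at 24 h, at log2 1.13 (adjusted p = 1.75e-32) in the authors' deposited table. MRPS30, a second large-subunit protein with a small-subunit symbol (chromosome 5, 44808925 to 44820428, plus strand, no shared exon), had 846 and 881 in NT and 1799 and 1893 at 24 h. Its log2 fold change was 1.10 (adjusted p = 5.63e-53) in the authors' deposited table. MRPL47, a homologue of the bacterial L29 protein, followed at 0.91 and MRPL10 at 0.81 in the authors' deposited table. MRPS10 rose further, from 6621 and 6158 to 9389 and 9369.

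The 7 lower members at 24 h were MRPS6, MRPL16, MRPL14, MRPS25, MRPS16, MRPL57 and MRPL55. MRPL16, the homologue of a bacterial protein near the peptidyl transferase centre, went from 1135 and 1052 normalised reads to 701 and 696 (log2 -0.65, adjusted p = 4.63e-14 in the authors' deposited table). MRPS6 was at 142 and 172 in NT and at 89.6 and 102 at 24 h (log2 -0.71, adjusted p = 0.00389 in the authors' deposited table). SLC5A3, which overlaps it, was at -0.26 at 24 h and at 0.32 at 6 h in the authors' deposited table, where MRPS6 was at -0.20 at 6 h. MRPL14, the large-subunit protein to which the assembly factor MALSU1 binds, went from 671 and 586 to 444 and 454 (log2 -0.49, adjusted p = 3.16e-05 in the authors' deposited table). MRPL57 and MRPL55 were near the threshold in the authors' deposited table, with adjusted p of 0.0407 and 0.0495, and in limma-voom fits on whole reads each call was lost without the deeper 24 h library, and that of MRPL57 also without the deeper NT library, at adjusted p of up to 0.0794 and 0.0592.

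Members also differed between the times. Subtracting the deposited log2 change at 6 h from that at 24 h, the result was above 0 past the threshold for 16 of 74 members and below it for 5, where 10.9% of all genes tested in both lay above and 12.1% below. The direct limma-voom contrast of the 24 h and 6 h libraries put 34 of 77 above and 16 below. Of all 15297 genes in that fit 3994 lay above and 3998 below. MRPS30, MRPS18A, MRPL1 and MRPL9 rose most after 6 h, by 1.07, 1.03, 0.84 and 0.79 (adjusted p = 3.40e-16, 7.53e-11, 0.000424 and 3.10e-08 by the normal test of the difference). MRPL1 had 292 and 337 normalised reads in NT and 299 and 298 at 6 h, which overlap, and then 564 and 556 at 24 h, where NT stood at 308 and 355 on the scale of that table. MRPL14, MRPL20 and MRPL30, large-subunit proteins with bacterial homologues, went down after 6 h, by -0.76, -0.49 and -0.49, and MRPS16 by -0.30 (adjusted p = 2.06e-05, 0.00404, 0.00239 and 0.0338 by the same test). MRPL14 was above NT in both libraries at 6 h, at 719 and 726 against 636 and 557, and below NT in both at 24 h.

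Of the members lower with hairpin 2 in MOLM13, 48.4% were higher at 24 h in U937, near the 42.1% of all members tested at 24 h. These comparisons share no library, and 76 members were tested in both. Of the 64 members lower with hairpin 2, 31 were higher at 24 h, or 48.4% of the 64 and 96.9% of the 32 that were higher at 24 h. Of all 76, 64 were lower with hairpin 2 and 32 were higher at 24 h. A further 5 members were lower in both, 28 were lower with hairpin 2 with no call at 24 h, and none was higher in both. How often all genes had these pairs of calls was not counted. MRPS18B was the only one of the 32 not also lower with hairpin 2, where it overlapped shNS. The sizes did not track each other: across the 76 members Pearson's r was -0.16 and Spearman's rho -0.08, given as a description, since genes are not replicates. The most frequent pattern over the 4 comparisons was lower with hairpin 2 and no call elsewhere (21 members), then lower with hairpin 2 and higher at 24 h alone (18 members), and 6 of the members tested in all 4 comparisons were called in none: MRPL38, MRPL41, MRPL46, MRPL49, MRPS17 and MRPS36. MRPL2 and MRPS24 also had no call, but MRPL2 was not tested at 6 h and MRPS24 at neither time. No member was called in the same direction in all 4 comparisons.

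**Figure D4:**
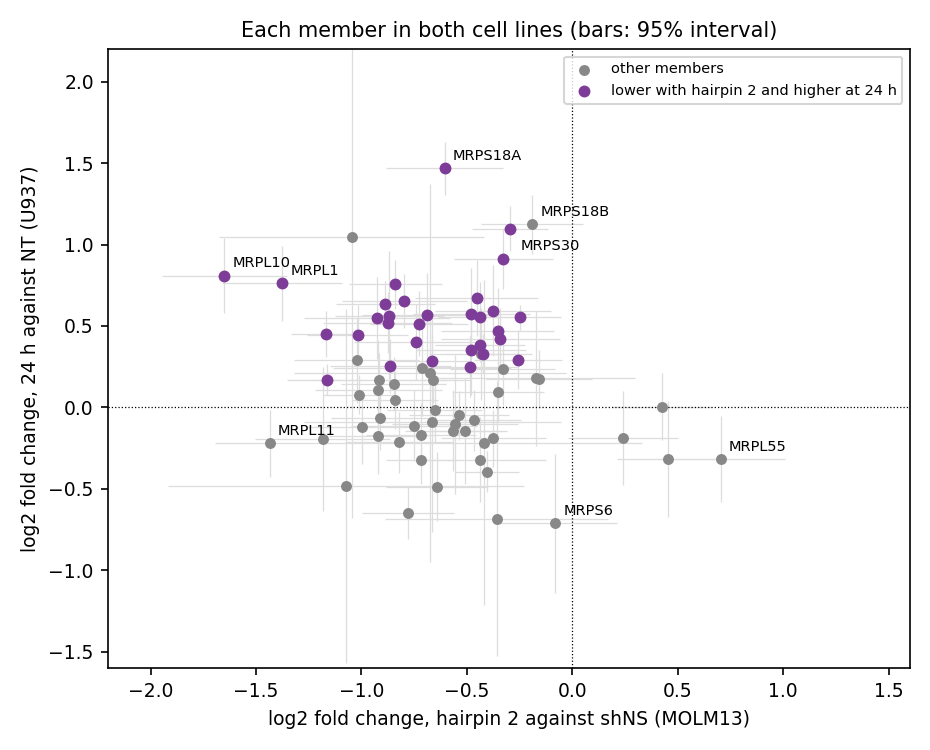
Deposited log2 fold change of each member with hairpin 2 in MOLM13 (x axis) against that at 24 h in U937 (y axis), with 95% intervals, some of which run past the axes; purple marks the 31 members lower with hairpin 2 and higher at 24 h. Most points lie left of 0, and MRPL10, MRPL1, MRPS18A and MRPS30 lie in the upper left.

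Mitoribosomal proteins that have other symbols were examined as a list. For this list and those below, the background is the share of all tested genes. With hairpin 2 22.1% were lower and 19.4% higher, and with hairpin 1 16% and 17.7%. At 6 h 12.3% were lower and 10.9% higher, and at 24 h 19.9% and 18.9%. With hairpin 2, 4 of the 5 genes with other symbols were lower: GADD45GIP1, AURKAIP1, CHCHD1 and PTCD3, at log2 -1.02, -0.84, -0.83 and -0.40 in the authors' deposited table. At 24 h GADD45GIP1 and PTCD3 were higher, at 0.44 and 0.58 in the authors' deposited table. DAP3, a GTP-binding protein of the small subunit, was at -0.17 with hairpin 2 (adjusted p = 0.0544) and was lower at 6 h, at -0.22 (adjusted p = 0.0260), in the authors' deposited table.

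Factors that assemble the mitochondrial ribosome were also mostly lower with hairpin 2. Of 25 assembly genes 19 were lower and 2 higher with hairpin 2 (median log2 -0.53) and 7 lower with hairpin 1 (median -0.17), and of 24 tested at 24 h 12 were higher and 1 lower (median 0.23), all from the authors' deposited table. TRUB2, a pseudouridine synthase, had 1005 and 1079 normalised reads in shNS and 406 and 415 with hairpin 2, at log2 -1.34 in the authors' deposited table. RBFA, which binds the small subunit as it matures, was at -1.16 with hairpin 2 in the authors' deposited table. DDX28, a helicase, and MRM3, a methyltransferase of the large ribosomal RNA, went the other way at 24 h, at 0.81 and 0.79 in the authors' deposited table. YBEY, an RNA endonuclease, was higher with hairpin 2 and at 24 h, at 0.72 and 1.10 in the authors' deposited table.

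Translation factors of mitochondria were lower for 9 of 17 with hairpin 2 and higher for none. At 24 h 4 of 17 were higher and 4 lower, 23.5% each, which was near the background. TUFM, the elongation factor, had 3898 and 3710 normalised reads in shNS and 2580 and 2342 with hairpin 2, at log2 -0.63 in the authors' deposited table, and at 24 h it was at -0.34. LRPPRC, which stabilises mitochondrial messages, was at -0.81 with hairpin 2 and -0.43 at 24 h in the authors' deposited table. Genes of mitochondrial transcription and genome upkeep were lower for 10 of 13 with hairpin 2 and higher for 1. Among them TFAM, which packs mitochondrial DNA, went from 2981 and 3375 to 1190 and 1235 normalised reads, at -1.39 in the authors' deposited table.

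**Figure D5:**
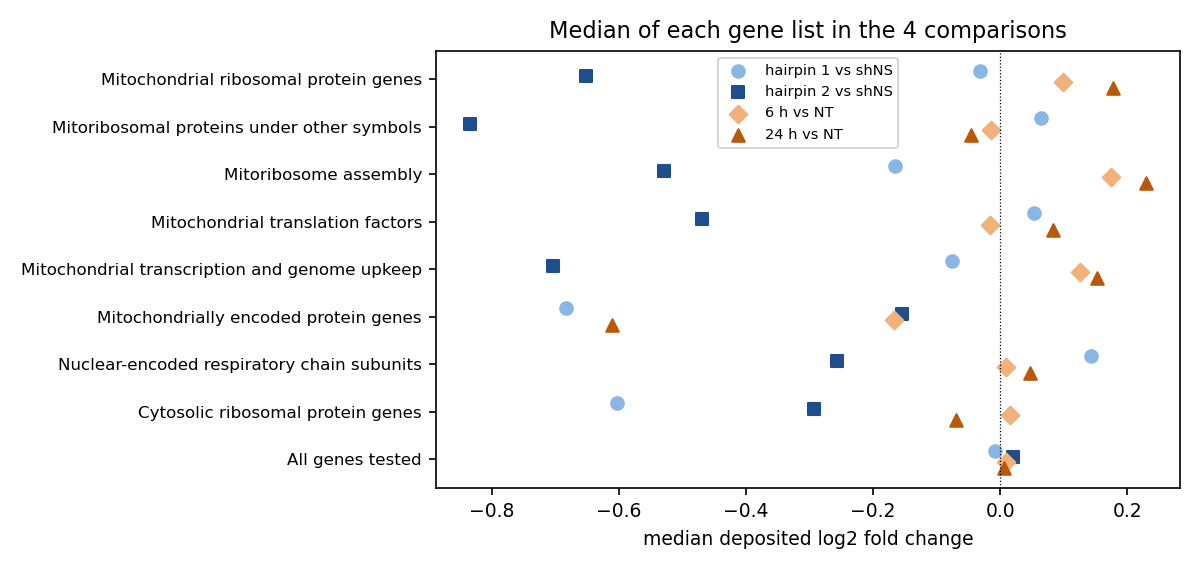
Median deposited log2 fold change of each gene list (rows) in each of the 4 comparisons (symbols); no interval is drawn. The hairpin 2 median of the mitochondrial ribosomal protein genes, -0.65, lies beside those of the assembly genes (-0.53) and of mitochondrial transcription and genome upkeep (-0.70), and the mitochondrially encoded genes are lowest with hairpin 1 and at 24 h (-0.68 and -0.61).

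The messages that this ribosome translates were mostly lower at 24 h. Of the 13 protein genes of mitochondrial DNA, 12 were lower and none higher at 24 h, with a median log2 of -0.61 in the authors' deposited table, while 32 ribosomal protein members were higher. MT-ND1, a subunit of complex I, went from 19805 and 19739 normalised reads in NT to 11850.2 and 11397.5 at 24 h. At 6 h 8 of the 13 were lower (median -0.17), and with hairpin 1 5 were lower (median -0.68) and none higher, in the authors' deposited table. With hairpin 2 none of the 13 was called lower and MT-CO1 was higher, at log2 0.44 (adjusted p = 3.24e-14) in the authors' deposited table. The hairpin 2 median of that table was -0.15, with 10 of the 13 below 0. The median standard error worked out for the 13 was 0.25 with hairpin 2 and 0.28 with hairpin 1, against 0.031 at 24 h, so the hairpin comparisons call less. Nuclear-encoded subunits of the respiratory chain had 30 of 80 lower and 4 higher with hairpin 2 (median -0.26) and 26 of 80 higher and 1 lower with hairpin 1 (median 0.14), both medians from the authors' deposited table. The share lower with hairpin 2, 37.5%, was near the 35.1% of genes in the members' range of base mean, against 22.1% of all tested genes. Proteins of the cytosolic ribosome were lower for 70 of 81 with hairpin 1 (median -0.60) and for 51 of 82 with hairpin 2 (median -0.29), in the authors' deposited table. Whether the lists differ was not tested.

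Genes of transcription factors linked to mitochondrial gene expression were listed as well. Of 8 tested with hairpin 1, 5 were lower and 2 higher, with log2 changes from -0.98 to 0.97 in the authors' deposited table. Of 9 tested with hairpin 2, 6 were lower and 3 higher. Of 9 tested at each time, 2 were higher and 0 lower at 6 h, and 4 were higher and 3 lower at 24 h. MYC, which activates many growth genes, had 7226 and 6615 normalised reads in shNS and 3738 and 3296 with hairpin 1, at log2 -0.98 in the authors' deposited table. With hairpin 2 it had 2404 and 2330 against 7052 and 6486, at -1.52 in the authors' deposited table. At 24 h MYC was at -0.49 in the authors' deposited table (adjusted p = 2.97e-27). GABPB1, a subunit of an ETS-family factor, was at -0.56 with hairpin 1 and -1.05 with hairpin 2, and its partner GABPA at -0.32 and -0.74, all called in the authors' deposited table; neither was called at 6 h or 24 h. PPARGC1A, a coactivator of mitochondrial genes, went from 289 and 282 to 530 and 579 normalised reads at 24 h, at log2 0.96 in the authors' deposited table. With hairpin 2 PPARGC1A was also higher, at 3.98 (adjusted p = 0.000245) in the authors' deposited table, from 3.92 and 0 normalised reads in shNS to 30.0 and 32.1. Whether any of these factors has a part in the changes of the members was not tested.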

How the data were processed

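RNA sequencing was measured in 12 libraries of 2 cell lines. Per the submitters' processing notes, the authors used cutadapt 4.1, HISAT2 2.1.1, HTSeq 2.0.2 and DESeq2 on hg38; strand setting and annotation release are not given in the sources used here. The deposited signal is, per the file headers, the base mean, which is the normalised count (reads over a size factor) as a mean of the 4 libraries compared. The deposited log2 values are the authors' fold changes, treated over control, and the deposited p-value is adjusted, by the authors, for the number of genes. A gene was called at an adjusted p under 0.05, and no calls were adjusted over the members alone.

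The tables hold no counts per library, so the edgeR test planned for counts was replaced by the authors' statistics, as the plan provided. Inverting the Benjamini-Hochberg adjustment gave raw p-values, and standard errors, 95% intervals and the test of differences were computed from them as for a Wald statistic; the shared controls are treated as separate, which makes that test cautious. Reads per library were worked out from the base means: the lowest ones give each library's size factor, and a search then finds the 4 whole numbers whose mean equals the base mean to its last digit. The search required the control reads to be the same whole numbers in both tables of a line, so their equality is not a separate check. Exactly 1 answer met this condition for 16842 of 16858 genes in MOLM13 and 15297 of 15304 in U937, including 77 members in each. Base means moved off by part of a read gave an answer for 0 members. Values per library are these reads over size factors, so control values differ slightly between the tables of a line. limma-voom (limma 3.58.1) on these reads, 1 fit of 3 groups per line, was added after seeing the data. Steps were tested on simulated data.

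Exon overlaps came from GENCODE 29 and promoters from RefSeq. Members, gene lists, tests and the motifs were chosen with earlier results of these data known. Named members are the 5 lowest and 5 highest per comparison, those called against the majority, the extremes of each difference and of level, and up to 4 genes of each other list. GABPA, MRPL49, MRPS17, MRPL2, RSPH9, SLC5A3, GUK1 and the cell type markers were also named after their values were seen. Reads are not independent molecules, so precision covers counting and library spread only, with 2 libraries per group that may be technical.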

Additional observations from a re-analysis of the deposited data

Results flagged for a closer look

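The results below are those in which the change under the same contrast differed between hairpins or between times by the test of the difference itself. Between hairpins 42 of 77 members differed, all below 0, where 18.3% of all genes tested in both lay below and 9.1% above. Between 24 h and 6 h 21 of 74 did, 16 above 0 and 5 below. There 10.9% of all genes tested in both lay above and 12.1% below. Differences of hairpin 2 minus hairpin 1 on the log2 scale were -1.58 for MRPL1, -1.35 for MRPL10, -1.19 for MRPL36, -1.17 for MRPS12 and -1.12 for MRPS6. Differences of 24 h minus 6 h were 1.07 for MRPS30, 1.03 for MRPS18A, 0.84 for MRPL1, 0.79 for MRPL9 and 0.76 for MRPS18B. Those below 0 were -0.76 for MRPL14, -0.49 for MRPL20, -0.49 for MRPL30, -0.30 for MRPS16 and -0.30 for MRPS25.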

How the results depend on the processing

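No paired analysis was possible because the tables give no library its replicate number. Requiring a 1.5-fold change besides left 7 called members for hairpin 1, 40 for hairpin 2, 1 for 6 h and 13 for 24 h, and the Bonferroni adjustment left 5, 38, 1 and 20, in place of 17, 67, 14 and 39. An adjusted p under 0.01 left 6 at 6 h. limma-voom on whole reads called 31 with hairpin 1, 26 at 6 h and 50 for 24 h minus 6 h, where the deposited statistics called 17, 14 and 21. The cause was not tested. Over all genes limma-voom called 3922 higher and 3651 lower of 16842 with hairpin 1. At 6 h it called 3033 higher and 3128 lower of 15297, and for 24 h minus 6 h 3994 and 3998. It called all 17, 67, 14 and 39 members that the authors' tables called, in the same direction. With each library left out in turn, limma-voom called 22 to 27 for hairpin 1, 60 to 65 for hairpin 2, 20 to 27 for 6 h, 38 to 48 for 24 h, 51 to 58 for hairpin 2 minus hairpin 1 and 39 to 50 for 24 h minus 6 h; the lone library is then assumed to vary like the others. Medians without 1 library ran from -0.088 to 0.00014 for hairpin 1, -0.67 to -0.60 for hairpin 2, 0.069 to 0.097 for 6 h and 0.17 to 0.21 for 24 h. The 6 h median was 0.071 with the mitoribosomal genes under other symbols, and the 24 h median was 0.21 for members with a base mean of at least 50. Calls that held in every fit with 1 of the 6 libraries left out numbered 13 of 17, 55 of 67, 14 of 14 and 36 of 39; among the named members that lost one were MRPS16 with hairpin 1 and MRPL12, MRPL30, MRPL47, MRPS10, MRPS30 and MRPL57 with hairpin 2. Centring on the median gene, filters on base mean and leaving out MRPS36 kept each count within 1.5 times. edgeR and DESeq2 fits were not run: the deposited tables hold no counts, and the reads worked out from them were fitted with limma-voom alone. Depth limits the members with few reads, such as MRPS24 and MRPS28 in U937.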
